A study of Mus musculus with 13 samples.

Results

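Pericytes and vascular smooth muscle cells are the mural cells that wrap the endothelial tube of blood vessels, and 10 genes known to mark them were examined in mouse brain. They were taken by gene symbol, with every probe set of the array annotated to 1 of them, and 20 of the 45101 probe sets on the array were found, for 10 of the 18193 genes with a named probe set. The pericyte genes were Pdgfrb, Rgs5, Cspg4, Abcc9, Kcnj8, Anpep, Higd1b and Vtn, with 16 probe sets, and the smooth muscle genes were Acta2 and Tagln, with 4. All 10 genes had a probe set above the filter on weak signals (a signal of 56.9), and 18 of the 20 probe sets passed it, the exceptions being 2 weak probe sets of Acta2.

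The series compared 6 wild-type embryos with 7 Meg3 knock-out embryos at embryonic day 18.5, with the brain of 1 embryo per array. Meg3 makes a long non-coding RNA from the maternal copy of an imprinted region. The leading number of the embryo label was taken to be the litter, which gave 5 litters, and litter 148 gave a knock-out only. The extent of the deletion and the strain and sex of the embryos are not stated in the labels. Meg3 itself, as a check of the labels, was lower in all knock-out brains than in any wild-type brain, by a log2 difference of -3.64 ± 0.20 SE (adjusted p of limma = 1.25e-07). On the Actb control probe sets, the 3' to 5' ratio, a sign of RNA quality, was 2.92 in wild-type 2 and 1.81 in knock-out 1, against 1.32 to 1.495 on the other 11 arrays. The neuron markers of the labelled tissue were high on every array, with a summed signal of 70043 to 90933 over 8 genes.

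In the forming brain, endothelial cells secrete PDGF-B, and pericytes that carry its receptor, PDGFRB, are drawn to the new capillaries and help to form the blood-brain barrier. Smooth muscle cells cover arteries and arterioles instead, and contain a contractile apparatus built from smooth muscle actin and its binding proteins, whose genes are activated by serum response factor through a DNA element named the CArG box. Whole tissue was measured, so fewer cells of a type and less RNA per cell cannot be told apart in any value below. Most of these markers are also transcribed in other cells, Cspg4 in oligodendrocyte precursors and several of the others in fibroblasts of the meninges.

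Loss of Meg3 was not accompanied by a change of any of these genes that passed the test. In knock-out brains the mean was above that of wild-type brains for 5 of the 8 pericyte genes and for 1 of the 2 smooth muscle genes, beside 65.5% of all 12920 genes tested. With limma and Benjamini-Hochberg adjustment over all genes, 0 of 10 passed the threshold of 0.05, beside 0.0232% of all genes. At an unadjusted p under 0.05 there was 1 member, Higd1b, beside 1.97% of all genes, and it was higher, beside 1.72%. The genotypes overlapped for all 10 members, beside 0.0774% of genes whose groups did not overlap. With ordinary least squares in place of limma's moderated variance the counts were again 0 and 1, beside 3 and 248 of the 12920 genes. The median log2 change was 0.08 for the pericyte genes, -0.06 for the smooth muscle genes and 0.04 for all genes tested. Each probe set tested separately gave 0 of 20 past the threshold, beside 0.0555% of all probe sets, and 0 of 20 at an unadjusted p under 0.05, beside 5.23% (4.68% higher and 0.553% lower). With ordinary least squares on the probe sets these counts were 0 and 1 of 20, beside 18 and 2021 of all 45037 probe sets. All 20 overlapped between genotypes, beside 0.164% of probe sets that did not, and 14 had a higher knock-out mean, beside 69.6%.

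**Figure D1:**
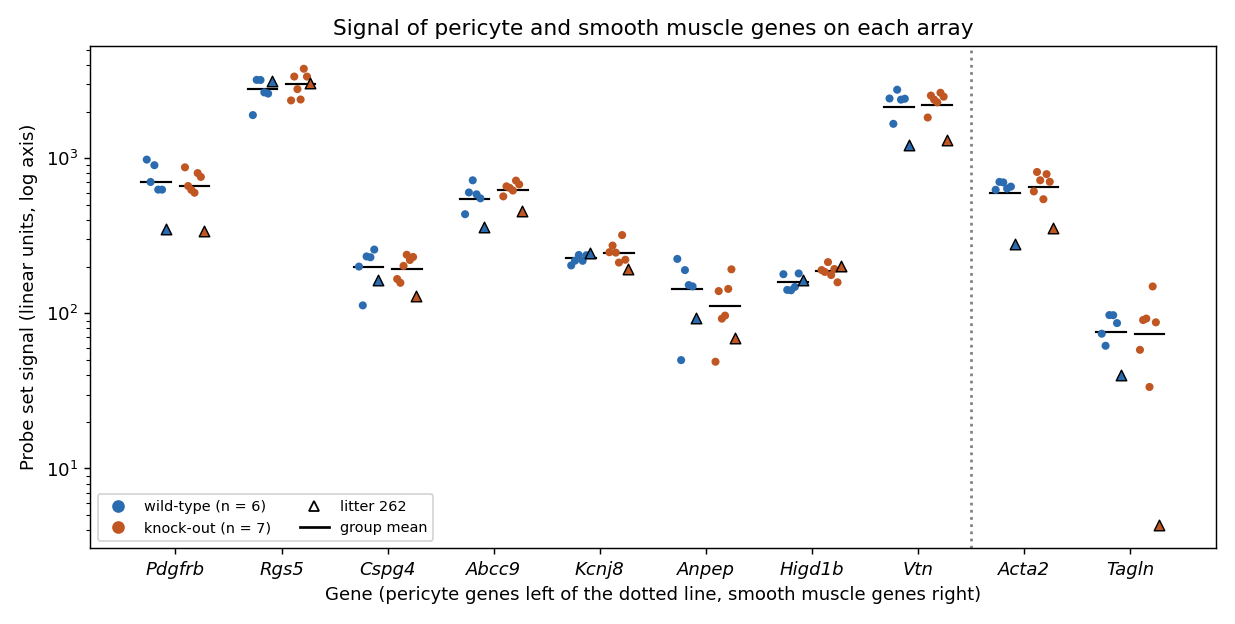
Signal of the probe set with the highest mean of each gene on each array, on a logarithmic axis, with 6 wild-type arrays in blue, 7 knock-out arrays in orange, the 2 arrays of litter 262 as triangles and the group mean as a line. The genotypes overlap for all 10 genes, and the triangles lie lowest of the 13 arrays for Pdgfrb, Vtn and Acta2.

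Pdgfrb, the receptor through which pericytes are recruited, had signals with a lowest, median and highest value of 348, 666 and 982 on wild-type and 338, 663 and 875 on knock-out arrays. The ranges nearly coincided, and on each side the lowest array was that of litter 262. The log2 change was -0.05 (95% interval -0.55 to 0.46). A second, weaker Pdgfrb probe set gave -0.03 ± 0.19 SE.

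Rgs5, a regulator of G-protein signalling that is abundant in brain pericytes, ranged from 1901 (median 2907) to 3208 on wild-type and from 2364 (median 3070) to 3783 on knock-out arrays. The groups overlapped over most of their range, and the log2 change was 0.12 (95% interval -0.20 to 0.43). Without wild-type 1 alone it was 0.012, and without knock-out 5 alone 0.060. The other 3 Rgs5 probe sets gave 0.08, 0.30 and 0.22, with standard errors of 0.59, 0.44 and 0.31, so they were far less precise.

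Cspg4 encodes the proteoglycan NG2. Its lowest, median and highest signals were 113, 215 and 258 in wild-type and 130.1, 203 and 239 in knock-out brains, and the log2 change was -0.03 (95% interval -0.42 to 0.35). Its second probe set had a change of the other sign, 0.13 ± 0.18 SE. The 8 markers of oligodendrocyte precursors, which share this gene, included 0 past the threshold and had a median log2 change of 0.08.

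Abcc9 and Kcnj8 encode the sulfonylurea receptor and the pore subunit of the ATP-sensitive potassium channel of mural cells, and they are next to each other among the protein-coding genes in the RefSeq gene table. Abcc9 had a lowest, median and highest signal of 361, 569 and 722 in wild-type and of 456, 645 and 719 in knock-out brains, for a log2 difference of 0.21 (95% interval -0.12 to 0.53). Without wild-type 6 alone it was 0.10. All 3 Abcc9 probe sets had a higher knock-out mean, by 0.30, 0.20 and 0.21 on the log2 scale. Kcnj8 had signals of 204, 228 and 245 against 194, 247 and 320.2, for a log2 difference of 0.09 (95% interval -0.15 to 0.33). Within the 4 litters that held both genotypes the Abcc9 difference was 0.35, -0.19, 0.29 and 0.33 in litters 219, 238, 250 and 262, and that of Kcnj8 was 0.35, -0.05, 0.21 and -0.31. The genes of this channel pair thus took opposite signs in litter 262.

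Anpep, which encodes the membrane peptidase aminopeptidase N, had a lowest, median and highest signal of 49.996, 151 and 225 in wild-type and of 48.8, 96.8 and 193 in knock-out brains. The lowest array of each group was the one with the raised 3' to 5' ratio, wild-type 2 and knock-out 1. The log2 change was -0.29 ± 0.31 SE, and it was -0.15 without wild-type 1 or without knock-out 1 and -0.52 without wild-type 2. It was -0.54 ± 0.24 SE with the ratio as a covariate (limma adjusted p = 1.00) and -0.38 ± 0.24 SE without both arrays, the latter a setting chosen after seeing the data. The part of RNA quality in the signal of Anpep was not tested further.

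Higd1b, a small protein of the HIG1 family that is a marker of brain pericytes, came closest to a difference. Its lowest, median and highest signals were 141, 156 and 181 in wild-type and 159, 190.4 and 214 in knock-out brains. Of the 7 knock-out arrays 6 lay above the wild-type mean of 159 ± 18.1 (SD, n = 6), and the knock-out mean was 189 ± 17.7 (SD, n = 7). The log2 change was 0.23 (95% interval 0.02 to 0.43), with an exact permutation p of 0.0175 (two-sided, over 1716 splits of the arrays that ignore litter, smallest possible p 0.00117) and a limma adjusted p of 1.00. It was higher in 4 of 4 litters, by 0.20, 0.42, 0.09 and 0.27 in litters 219, 238, 250 and 262. With litter as a block the limma p before adjustment was 0.0671, against 0.0367 without it. Scaling altered it, to 0.17 ± 0.10 SE with the arrays brought to one trimmed mean, 0.06 ± 0.11 SE after quantile normalization and 0.03 ± 0.12 SE after median centring, when the median of all genes moved from 0.04 to -0.01, -0.03 and -0.15.

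Vtn, the gene of the adhesion glycoprotein vitronectin, had a lowest, median and highest signal of 1224, 2408 and 2772 in wild-type and of 1321, 2393 and 2651 in knock-out brains. The medians were close and the lowest array on each side was again that of litter 262. The log2 change was 0.06 (95% interval -0.37 to 0.49), and the second Vtn probe set gave 0.18 ± 0.23 SE.

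Acta2, smooth muscle alpha-actin, had signals of 279.8, 648 and 705 in wild-type and 355, 706 and 817 in knock-out brains, again as lowest, median and highest. The log2 change was 0.12 (95% interval -0.35 to 0.60), and it was -0.08 without wild-type 6 alone. Its other 2 probe sets had signals of 0.863 to 33.5 on all arrays, too weak to say anything of the gene. Tagln, which encodes the actin-binding protein transgelin, was weak too, at 40.1, 80.3 and 97.6 in wild-type and 4.30, 87.6 and 149 in knock-out brains. Its log2 change of -0.24 (95% interval -1.04 to 0.57) turned to 0.08 without knock-out 7, the array at 4.30. The exact permutation p of the 9 members other than Higd1b was 0.211 to 0.874.

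**Figure D2:**
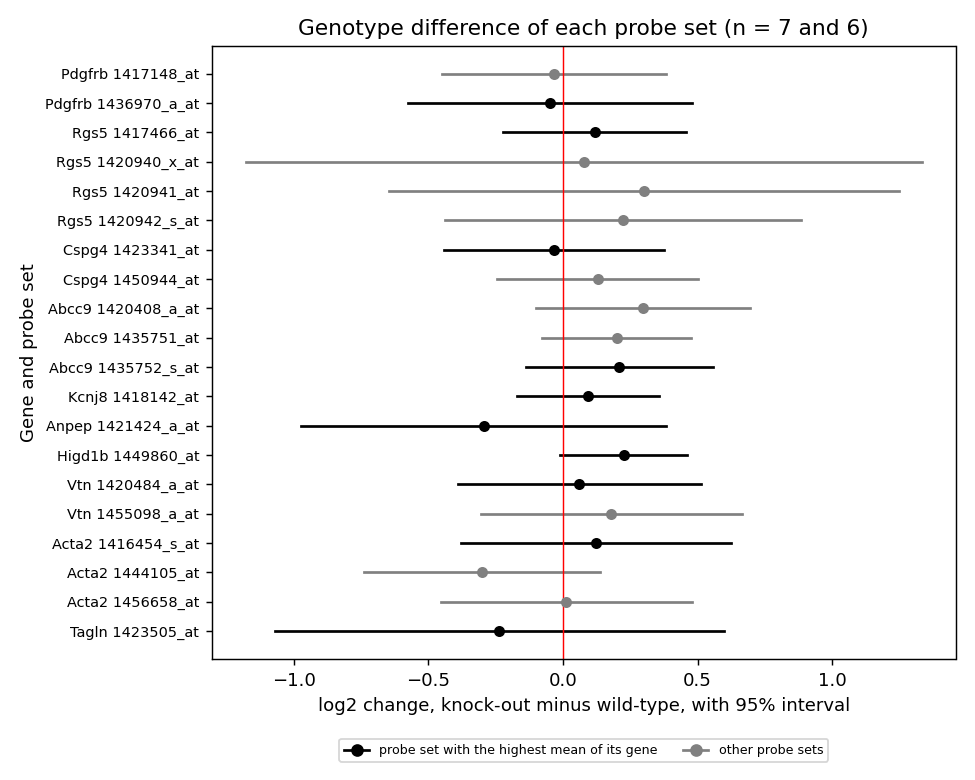
Log2 change of each of the 20 probe sets, knock-out (n = 7) minus wild-type (n = 6), with its 95% interval from the limma fit over all 45037 probe sets that are not controls. The probe set with the highest mean of each gene is in black, and every interval holds 0, that of Higd1b by the smallest margin.

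Genes that act with these markers did not pass the test either. Among 14 further pericyte genes tested the knock-out mean was higher for 9 and lower for 5, and 0 passed, at a median log2 change of 0.07. Mcam, an adhesion molecule of mural and endothelial cells, had a change of 0.23 ± 0.11 SE, and Ndufa4l2, a hypoxia-responsive mitochondrial protein, one of 0.25 ± 0.17 SE. Of 15 further smooth muscle genes 8 were bright enough to be tested, and the knock-out mean was higher for 7 and lower for 1 (median 0.06, 0 past the threshold). Smtn, which encodes the contractile protein smoothelin, was at 0.22 ± 0.17 SE and the intermediate filament gene Des at 0.31 ± 0.24 SE.

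Of 17 tested genes of the pathways that recruit mural cells and drive their contractile program, the mean was higher for 12 and lower for 5 (median 0.07, 0 past the threshold). Acvrl1, a TGF-beta family receptor of endothelium, was at 0.36 ± 0.17 SE and Hbegf, an EGF receptor ligand, at 0.18 ± 0.17 SE. The ligand gene Pdgfb was at 0.13 ± 0.15 SE, the ligand gene Angpt1 at -0.08 ± 0.29 SE, and Srf, the gene of serum response factor, at -0.09 ± 0.14 SE, these 3 named after their values were seen. The markers of other cells had 0 genes past the threshold as well. Their median log2 change was 0.04 for 15 endothelial, -0.01 for 12 meninges and fibroblast, 0.10 for 4 skeletal muscle, 0.02 for 8 microglia, 0.06 for 4 red cell and 0.06 for 8 neuron markers.

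The 2 genes of smallest p in each of these lists were as follows, as log2 changes with SE. Cx3cr1, the fractalkine receptor of microglia, was at 0.31 ± 0.11 (limma p before adjustment 0.0135) and the alpha-globin gene Hba-a2 at 0.50 ± 0.19 (0.0189), both with an adjusted p of 1.00. Fcer1g was at -0.21 ± 0.17 among the microglia markers and Bpgm at -0.07 ± 0.10 among the red cell markers. The endothelial adhesion gene Pecam1 was at 0.24 ± 0.13 and Vwf, the gene of von Willebrand factor, at 0.38 ± 0.23. Bgn and Fbln1, both matrix genes, were at -0.33 ± 0.29 and 0.19 ± 0.22. Among oligodendrocyte precursor markers Pcdh15 was at 0.36 ± 0.25 and the transcription factor gene Sox10 at -0.26 ± 0.18. The muscle actins Actc1 and Acta1 were at 0.33 ± 0.27 and 0.18 ± 0.15, and the neuronal genes Syn1 and Dcx at -0.24 ± 0.14 and 0.16 ± 0.10.

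One litter stood apart. On both arrays of litter 262, which are 1 wild-type and 1 knock-out, Acta2, Pdgfrb and Vtn were lower than on any of the other 11 arrays. Acta2 was at 279.8 and 355 there and at 545 to 817 elsewhere, Pdgfrb at 348 and 338 against 601 to 982, and Vtn at 1224 and 1321 against 1670.4 to 2772. The differences from the mean of the other arrays were -1.07, -1.06 and -0.87 on the log2 scale. Both Vtn probe sets behaved so, whereas the weaker Pdgfrb probe set, at 128 and 125, lay within the 91.7 to 218 of the others. Of those others only wild-type 2, the array of the highest 3' to 5' ratio, was lower, and the next was knock-out 1 at 131. This probe set was also lower in litter 262 on average, by a log2 difference of -0.37.

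The other members did not share this order, though several of them were lower in litter 262 on average. Rgs5 stood at 3152 and 3070.0 in litter 262, inside the 1901 to 3783 of the other arrays, Higd1b at 164 and 201 inside 141 to 214, and Kcnj8 at 245 and 194 against 204 to 320.2. Tagln was at 40.1 and 4.30, where knock-out 4 was at 33.6. Its difference from the mean of the other arrays was -1.52 on the log2 scale. Abcc9, Anpep and Cspg4 were also lower in litter 262 on average, by log2 differences of -0.57, -0.52 and -0.41. For Rgs5, Kcnj8 and Higd1b the differences were 0.14, -0.12 and 0.07. Of the genes tested, 9.71% had both arrays of litter 262 lowest, so 3 of 10 members is to be read beside that share. Of the 20 member probe sets 4 had this order, beside 4.78% of all probe sets, and 0 of 10 member genes were highest on both arrays, beside 2.89%. For litters 219, 238 and 250 there were 0 members with all arrays of the litter lowest, beside 0.689%, 0.193% and 0.0232% of genes (for litter 250, 0.0777% of probe sets), and 0 with all of them highest, beside 0.673%, 0.232% and 0.433%. This split by litter was looked at after the values were seen.

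Markers of other cells moved with the mural genes on these 2 arrays. The summed signal of 12 meninges and fibroblast markers was 9047 and 7661 in litter 262 against 12003 to 22753 elsewhere, and that of 15 endothelial markers 8018 and 7699 against 9984 to 12051. Of these lists 7 of 12 and 8 of 15 genes were lowest on both arrays, as were 5 of 8 further smooth muscle genes, 3 of 14 further pericyte genes and 4 of 8 microglia markers. Skeletal muscle, red cell and oligodendrocyte precursor markers had 0 such genes of 4, 4 and 8. The summed signal of the red cell markers was still lower in litter 262, at 2007 and 2050 against 2258 to 3837 elsewhere. Their mean log2 deviation was -0.78 on wild-type 6 and -0.25 on knock-out 7, against -0.42 to 0.78 elsewhere. The 8 neuron markers had 0 such genes and 2 that were highest on both, with a summed signal of 90617 and 90933 against 70043 to 82028. The part of meningeal or endothelial tissue in the low mural signals was not tested, since brain dissection is not described in the sources used here. By genotype the summed signal of the meninges markers was 9047 to 22753 in wild-type and 7661 to 20458 in knock-out brains, and that of the endothelial markers 8018 to 11508 and 7699 to 12051, so both lists overlapped between genotypes.

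**Figure D3:**
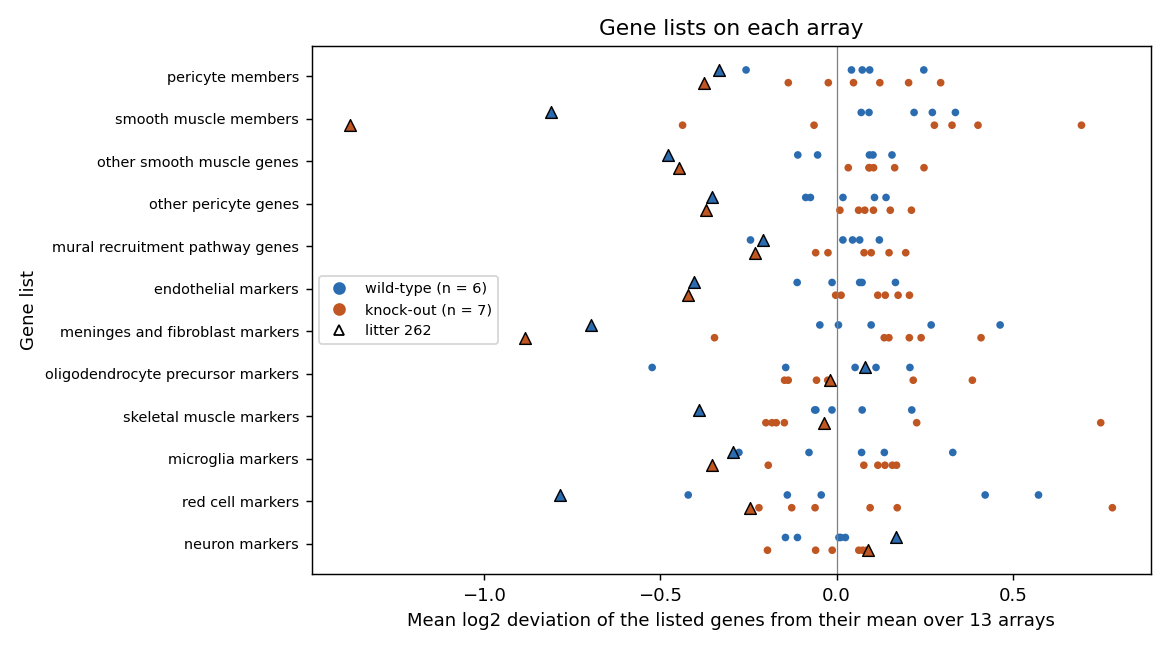
Mean log2 deviation of the genes of each list from their own mean over the 13 arrays, with 1 point per array, wild-type in blue, knock-out in orange and litter 262 as triangles. Both triangles are the lowest points for the 8 pericyte and 2 smooth muscle members (mean deviations -0.35 and -1.09). They are so too for the other pericyte and other smooth muscle genes (-0.36 and -0.46). The same holds for the meninges, endothelial and microglia markers (-0.79, -0.41 and -0.32), and not for the neuron markers (0.13).

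Pericyte genes varied with smooth muscle genes at least as closely, by the median correlation, as with one another. Over the 13 arrays the Pearson correlation of log2(signal + 16) had a median of 0.24 among the 28 pairs of pericyte genes (18 positive), 0.52 among the 16 pairs of a pericyte with a smooth muscle gene (14 positive), and 0.78 for Acta2 with Tagln. Over all pairs of tested genes the median was 0.07. For single members the median correlation with the 12919 other genes ran from 0.02 (Rgs5) to 0.23 (Kcnj8), with 0.21 for Vtn, 0.18 for Acta2 and 0.22 for Tagln. The median of the pericyte pairs is to be read beside these values too. The 16 pairs across the 2 kinds rest on only 2 smooth muscle genes. Some members were as close to markers of other cells. The median correlation of Pdgfrb was 0.37 with the other pericyte members, 0.69 with endothelial and 0.65 with meninges markers. For Acta2 these values were 0.36, 0.66 and 0.73, for Vtn 0.69, 0.58 and 0.74, and for Rgs5 -0.05, -0.19 and -0.03. By permutation with 100000 resamples and adjustment over the 45 pairs, 11 pairs passed 0.05, all of them positive, 5 of them among pericyte genes, 5 across the 2 kinds and 1 between the smooth muscle genes. Among all pairs of tested genes, 5.77% had a correlation of at least 0.690, the lowest of the 11, and 1.15% one as negative.

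The count of 11 changed with the arrays and the scaling, and the median correlation of the 45 pairs ranged from 0.19 to 0.50. The count was 2 without litter 262, 0 with Spearman's correlation (lowest adjusted p 0.0574) and 0 for residuals after litter and genotype means. It was also 0 without any single one of wild-type 3, wild-type 4, wild-type 5, knock-out 5, knock-out 6 or knock-out 7, and 1 without wild-type 6 and 2 without wild-type 2. Without wild-type 3, 4 or 5 or knock-out 6 the lowest adjusted p was 0.0535 to 0.0571, against 0.0401 over 13 arrays, and the median correlation was 0.32 to 0.39, against 0.34. It was 0.30 without knock-out 5, 0.23 without knock-out 7 and 0.19 without litter 262. Scaling to one trimmed mean gave 0 pairs at a lowest adjusted p of 0.0503 and a median correlation of 0.28. Arrays of one litter are not fully independent points.

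In several sets of members each pair passed over all 13 arrays, namely Pdgfrb, Vtn, Acta2 and Tagln, Cspg4, Anpep and Vtn, and Abcc9, Vtn and Acta2. Acta2 had a correlation of 0.84 with Abcc9 (Spearman 0.76, permutation adjusted p = 0.0401) and of 0.85 with Vtn (Spearman 0.72, adjusted p = 0.0401), and Abcc9 had one of 0.75 with Vtn (Spearman 0.73, adjusted p = 0.0401). The raw permutation p values were 0.00125, 0.00188 and 0.00556. Without the 2 arrays of litter 262 the 3 correlations were 0.53, 0.31 and 0.31, and none of them passed (permutation adjusted p = 0.330, 0.888 and 0.888). Pdgfrb behaved likewise, with correlations of 0.81 with Acta2 and 0.76 with Vtn over 13 arrays (Spearman 0.38 and 0.63, raw p 0.00601 and 0.00582, permutation adjusted p = 0.0401 for both) and 0.04 and 0.05 without litter 262.

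The stretches of 250 bases before the start of these 3 genes, from RefSeq on GRCm38.p6, are shown as one set of members whose pairs all passed over 13 arrays, and one that holds a smooth muscle gene. Each is given 5′ to 3′ on the strand of its gene, and capitals mark CArG boxes with at most 1 letter of the core other than A or T. Acta2 lies on the minus strand (chr19:34255374-34255623), Vtn on the plus strand (chr11:78498870-78499119) and Abcc9 on the minus strand (chr6:142702275-142702524).
Acta2: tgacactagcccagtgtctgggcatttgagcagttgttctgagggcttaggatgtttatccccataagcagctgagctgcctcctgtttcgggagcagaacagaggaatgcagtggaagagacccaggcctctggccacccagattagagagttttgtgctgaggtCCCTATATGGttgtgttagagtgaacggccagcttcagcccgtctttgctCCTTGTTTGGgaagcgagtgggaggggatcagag
Vtn: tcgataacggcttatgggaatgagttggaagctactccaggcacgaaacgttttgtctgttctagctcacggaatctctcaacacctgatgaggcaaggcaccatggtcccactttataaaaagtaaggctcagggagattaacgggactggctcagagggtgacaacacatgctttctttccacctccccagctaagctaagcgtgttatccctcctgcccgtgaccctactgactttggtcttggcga
Abcc9: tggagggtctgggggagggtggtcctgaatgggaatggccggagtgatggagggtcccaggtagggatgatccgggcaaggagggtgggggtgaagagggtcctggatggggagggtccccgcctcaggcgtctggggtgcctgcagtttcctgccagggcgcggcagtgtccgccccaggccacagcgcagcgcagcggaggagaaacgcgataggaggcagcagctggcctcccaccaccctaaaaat
The Acta2 stretch holds 2 such boxes, CCCTATATGG beginning at position -84 and CCTTGTTTGG beginning at -34, counted from the start, each with 1 other letter. Of the 7 members with a promoter in that table, which Pdgfrb, Tagln and Higd1b are not among, Acta2 was the only one with a box in the window of 300 bases (250 before and 50 after the start). Of all 32851 promoters of that length in the table, 9.98% held at least 1 such box and 0.822% at least 2. The motif searched was CC, 6 letters of A or T with at most 1 other letter, then GG, which reads the same on both strands, so both were covered. A match describes letters and is not evidence of binding, and no match in the Vtn and Abcc9 windows says only that these letters are absent there.

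The correlation of the smooth muscle pair was nearly as high without litter 262, though it no longer passed. Acta2 and Tagln had a correlation of 0.78 over 13 arrays (Spearman 0.76, raw p 0.00727, permutation adjusted p = 0.0401) and of 0.77 over 11 (adjusted p = 0.0713), 0.82 within the wild-type and 0.97 within the knock-out arrays. Each genotype holds 1 array of litter 262, so the values within genotypes do not leave that litter out. The 2 arrays farthest from the Acta2 median are those of litter 262, so leaving them out is the same check, at 0.77. The residuals after litter and genotype means correlated at 0.47.

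Without litter 262 the 2 pairs that passed were Rgs5 with Abcc9, which had not passed over 13 arrays, and Anpep with Vtn, which had. Rgs5 and Abcc9 had a correlation of 0.39 over 13 arrays (Spearman 0.62, permutation adjusted p = 0.414) and 0.88 over the other 11 (permutation adjusted p = 0.0306), with 0.90 for the residuals after litter and genotype means. Anpep and Vtn had 0.69 over 13 (Spearman 0.70, permutation adjusted p = 0.0404) and 0.87 over 11 (adjusted p = 0.0403), with 0.91 for the residuals. Of these 11 arrays, wild-type 2 and knock-out 1, those of raised 3' to 5' ratio, were the lowest for both genes. Anpep was at 49.996 and 48.8 there and Vtn at 1670.4 and 1835. Without these 2 arrays but with litter 262 the correlation was 0.70. The part of RNA quality in this pair was not tested. For the residuals, taken over 12 arrays without litter 148, 0 pairs passed (lowest permutation adjusted p 0.404). Rgs5 and Acta2 went from 0.09 (Spearman 0.63) to 0.79, which did not pass (adjusted p = 0.0591 over 11 arrays). Over the 11 arrays the median correlation was 0.07 among pericyte pairs and 0.34 between pericyte and smooth muscle genes, so the lower median of the pericyte pairs was found with and without that litter. The 4 other pairs that passed over 13 arrays were Vtn with Tagln (0.77, Spearman 0.80), Pdgfrb with Tagln (0.71, Spearman 0.48), Cspg4 with Vtn (0.71, Spearman 0.48) and Cspg4 with Anpep (0.70, Spearman 0.59). Higd1b stood outside, with correlations of -0.20 to 0.24 with the other 9 members.

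**Figure D4:**
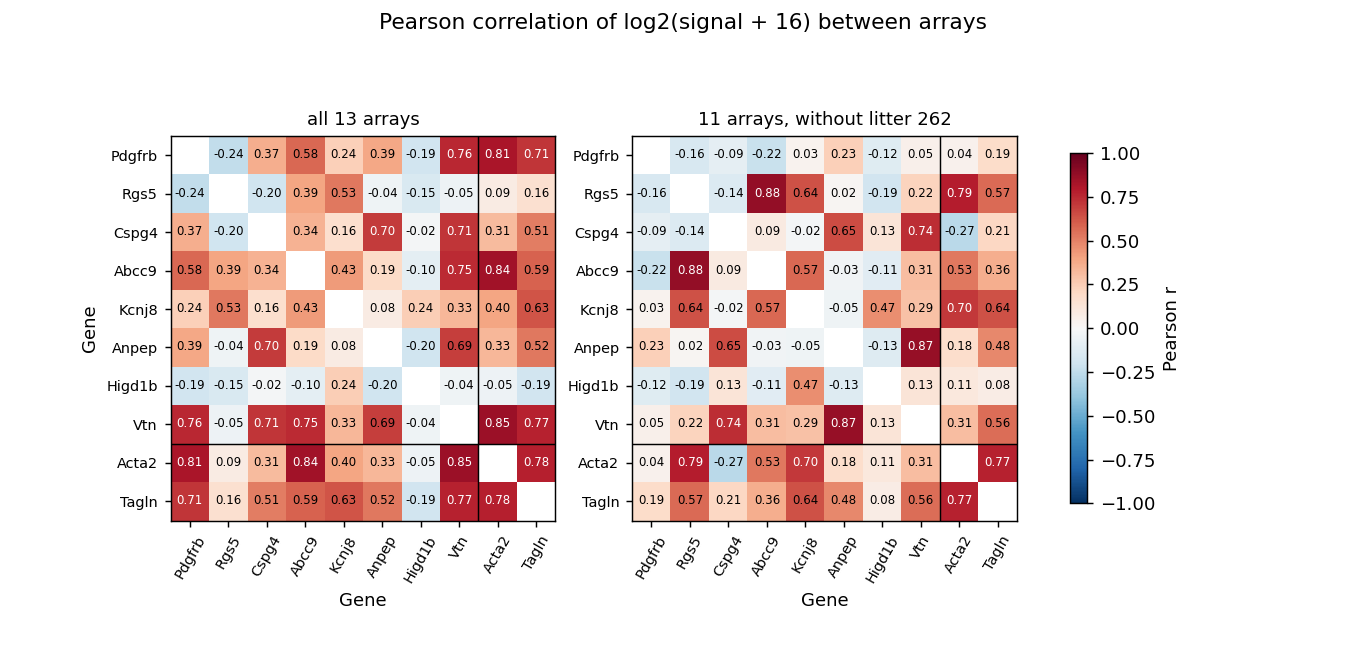
Pearson correlation of log2(signal + 16) between each pair of members, over all 13 arrays on the left and over 11 arrays without litter 262 on the right, with pericyte genes before and smooth muscle genes after the black lines. The correlations of Pdgfrb with Acta2 and Vtn fall from 0.81 and 0.76 to 0.04 and 0.05, that of Acta2 with Tagln is 0.78 and 0.77, and that of Rgs5 with Abcc9 goes from 0.39 to 0.88.

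The 3 genes most like each member were found by Pearson correlation over the 13 arrays among the 12920 genes tested, and the highest of so many correlations is high by selection. Vtn was most like Igf2, an imprinted growth factor gene expressed in meninges and vessels (0.98), Islr (0.98) and Flt1, a VEGF receptor of endothelium (0.97). Abcc9 was most like Kdr, the main VEGF receptor (0.95), Hacd4 (0.93) and Selenos (0.92). Acta2 was most like the transporter gene Slc6a20a (0.96), Gng11 (0.96) and Vamp5 (0.94), and Pdgfrb like Npc2, Tmem205 and Ramp2 (0.96 each). Tagln was most like Nxt1 (0.93), Yap1, a transcriptional coactivator (0.93), and Gprc5b (0.92). Rgs5 had its highest values with Adam17 (0.90), Slco1c1, a barrier transporter of endothelium (0.88), and Zfp563 (0.87). Cspg4 had them with Lrrc75b, Sh3bgrl3 and Dgat2 (0.93, 0.93 and 0.92) and Anpep with Agpat4, Mrps34 and Gabarapl1 (0.92 each). Kcnj8 and Higd1b had no close match, the highest being Itga6 at 0.80, Papss2 at 0.78 and C1ql3 at 0.77 for Kcnj8 and Il3ra at 0.80, Nrip2 and Nop2 at 0.79 for Higd1b. Among the 12919 other genes, the 90 ranks of one member in likeness to another ran from 35 (Acta2 for Abcc9) to 11670, with a median of 4122. Each of these correlations includes the values of litter 262.

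Probe sets of one gene did not always tell the same story. Of the 15 pairs of probe sets within a gene, 3 were correlated past the threshold by permutation with adjustment over the 15. The 2 Vtn probe sets had a correlation of 0.96 (Spearman 0.77, adjusted p = 0.0003, and 0.88 without litter 262), 1 pair of Abcc9 had 0.71 (Spearman 0.58, adjusted p = 0.0350) and 1 pair of Rgs5 0.73 (Spearman 0.82, adjusted p = 0.0339). The other Abcc9 pairs had 0.62 and 0.27 (adjusted p = 0.0700 and 0.482, permutation). The 2 Pdgfrb probe sets had 0.45 and the 2 Cspg4 probe sets 0.62, neither past the threshold (adjusted p = 0.257 and 0.0700, permutation). The 3 pairs of Acta2, which include its 2 weak probe sets, had -0.24, -0.27 and -0.05.

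The 4 Rgs5 probe sets, whose 6 pairs had correlations of 0.09 to 0.73, differed in the order of the arrays. The brightest, 1417466_at, stayed within 1901 and 3783, while 1420940_x_at ranged from 78.9 to 913, 1420941_at from 86.8 to 905 and 1420942_s_at from 225 to 1057. On these 3 weaker probe sets both arrays of litter 262 were the highest of all 13, at 879 and 913, 905 and 666, and 1057 and 901, beside 7.62% of all probe sets with that order. The brightest probe set was only 0.14 higher there on the log2 scale, against 1.87, 1.14 and 1.05 on the other 3. The ending x marks probe sets with probes that can match other sequences, and s those shared by several transcripts, and where each lies in the transcript is not given in the files. The probe sets used for Acta2 (1416454_s_at) and Abcc9 (1435752_s_at) end in s as well.

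**Figure D5:**
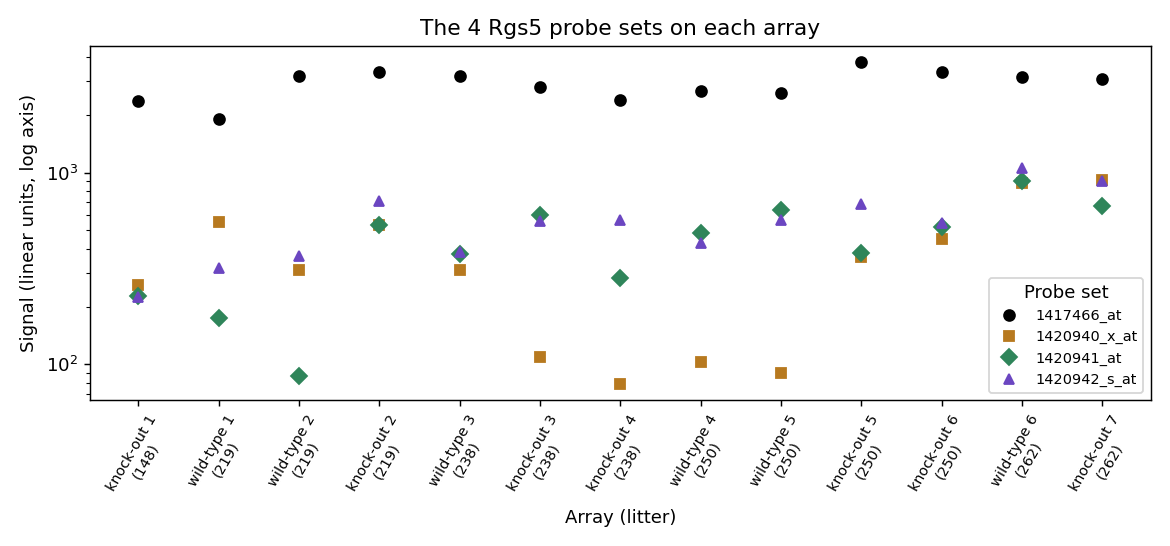
Signal of the 4 Rgs5 probe sets on each array, on a logarithmic axis, with arrays ordered by litter. The brightest probe set spans 1901 to 3783, and the 3 weaker ones reach their highest signals on the 2 arrays of litter 262.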

How the data were processed

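The authors deposited a linear intensity per probe set for each Affymetrix mouse array; the software and any scaling behind it are not given in the sources used here. A lipid tissue kit served for extraction and 5 µg of total RNA was made into biotinylated cRNA, per the labels' protocols. There were 6 wild-type and 7 knock-out arrays of 1 embryo each, and their number limits the precision. Probe sets were named by the GEO platform annotation (34945 with 1 symbol, 932 with several, 9160 unnamed, 0 symbols needing an update). No detection calls were used.

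Signals were turned into log2(signal + 16), which understates changes of weak genes. Probe sets above the 40th percentile of the mean were kept, the one with the highest mean standing for its gene, and 12920 genes were tested in limma 3.58.1 (R 4.3.3) by lmFit and eBayes, with two-sided p values adjusted after Benjamini and Hochberg and a threshold of 0.05. All 45037 probe sets that are not controls were also tested with no filter. Member pairs were correlated with permutation tests in Python 3.11.15 (numpy 2.4.6, scipy 1.17.1), and plots drawn with matplotlib 3.10.9. For residuals after litter and genotype means, litter 148 was left out and values were permuted within litters (1728 ways). The scripts were tested on simulated data.

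The members and the gene lists (116 entries beside the members, 111 with a named probe set) were chosen with earlier results of these data known. Genes named are the 10 members, the 2 with the smallest p of a list where none passed, and the 3 genes most correlated with each member. Marker lists of other cells served for comparison. Embryos of one litter would share a mother, and p values that ignore litter do not allow for this. Alternatives in pseudocount, filter, scaling, probe set choice, blocks and left-out arrays are given in the closing section.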

Additional observations from a re-analysis of the deposited data

Results flagged for a closer look

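Across the 20 member probe sets and both genotypes, 40 groups of arrays were examined for an array standing far from the rest on the log2(signal + 16) scale by Dixon's ratio, which flags about 1 group in 20 by chance, and 4 were found. Acta2 (probe set 1416454_s_at) was 279.8 on wild-type 6, where the next wild-type array was at 627. Pdgfrb (1436970_a_at) was 338 on knock-out 7, where the next was at 601, and the second Vtn probe set (1455098_a_at) was 449 on the same array, where the next was at 716. Rgs5 (1420942_s_at) was 225 on knock-out 1, the knock-out array with the highest 3' to 5' ratio, where the next was at 544. The first 3 are arrays of litter 262.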

How the results depend on the processing

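The results for genotype kept their side of the threshold. Over 32 alternatives 0 members passed of the 10 tested (6 with the filter at the 60th percentile and 9 without litter 250, lowest adjusted p 0.634), over 29 alternatives 0 of 20 member probe sets passed (lowest 0.642), and 2 to 4 genes passed in all. Abcc9, Anpep and Higd1b had one sign in each alternative that tested them, with ranges of 0.011 to 0.30, -0.54 to -0.15 and 0.028 to 0.28, and Higd1b had an unadjusted p under 0.05 in 13 of 31. After median centring the log2 changes of Acta2, Kcnj8, Rgs5 and Vtn turned to -0.073, -0.10, -0.080 and -0.14, and that of Kcnj8 to -0.055 after quantile normalization. Pdgfrb turned to 0.0034 with the Actb ratio in the fit, 0.10 without litter 219 and 0.065 without litter 238, Rgs5 to -0.015 without litter 250, and Cspg4 to 0.047 with the median of its probe sets, 0.025 without litter 250 and 0.0057 without litter 262. With the title's replicate number as a block Cspg4, Pdgfrb and Tagln turned to 0.048, 0.10 and 0.082. Same-numbered arrays had correlations of deviations of -0.26 to 0.40 and are not all littermates, so the numbers pair nothing. With litter as a block 0 members and 0 member probe sets passed, beside 3 of 12920 genes and 17 of 45037 probe sets. At an unadjusted p under 0.05 the count was 0 members with the block, beside 269 of 12920 genes. Without it there was 1 member, beside 255 genes. The count of member probe sets was 2 of 20 with the block, beside 2536 of 45037 probe sets, and 0 without it, beside 2357. Leaving out 1 array gave -0.076 to 0.26 for Acta2, -0.17 to 0.048 for Cspg4, -0.23 to 0.10 for Pdgfrb, -0.42 to 0.082 for Tagln, -0.090 to 0.18 for Vtn, 0.10 to 0.30 for Abcc9, -0.52 to -0.15 for Anpep, 0.19 to 0.26 for Higd1b, 0.030 to 0.14 for Kcnj8 and 0.012 to 0.17 for Rgs5. Causes of these turns were not tested.

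The count of 11 correlated member pairs was 0 with trimmed mean scaling, Spearman's correlation, the litter block with genotype or without litter 250. It was 6 without litter 219, 3 without litter 238, 2 without litter 262 and 7 without the 2 arrays of high 3' to 5' ratio, the last chosen after seeing the data. Without 1 array it was 0 to 12. The median correlation over all member pairs stayed positive over the 27 alternatives, from 0.19 to 0.50. That over all pairs of tested genes was positive too, at 0.07, and was taken over the 13 arrays only. Fewer arrays mean less power, and other causes were not tested.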
